A study of Mus musculus with 21 samples.

Results

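The nuclear genes of the respiratory chain and ATP synthase were followed in 21 mouse RNA samples measured on bead arrays. Genes were taken by name: all symbols that start with Nduf, Uqcr or Atp5, the 4 succinate dehydrogenase genes Sdha to Sdhd, and all symbols that start with Cox4 to Cox8. Of 87 such genes on the array, 81 had a probe detected (detection p under 0.01) on at least 3 arrays, out of 11034 genes that met the same filter. The probes of the other 6, Ndufs1, Ndufaf6, Sdha, Uqcrfs1, Cox7b2 and Cox8c, were detected on 0 arrays, whereas each of the 81 was detected on at least 20, so no gene lay near the limit. Whether the RNA of these 6 was absent or their probes failed to report it was not tested. The 81 are 72 subunits, 7 assembly factors of complex I (Ndufaf genes), Ndufs5-ps, annotated as a transcribed pseudogene, and Cox7a2l, a factor that joins complexes III and IV. Ndufa4, named for complex I and now placed in complex IV, was counted with complex IV.

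All mice were of mixed C57Bl/6 and 129X1/SvJ background and carried 1 SmoM2 allele (SmoM2/+), an activated form of the Hedgehog signal transducer Smoothened. In 15 tumors (aP2-Cre/+;SmoM2/+) Cre recombinase was driven by the promoter of aP2, a lipid-binding protein of adipocytes, and in 3 tumors (Myogenin-Cre/+;SmoM2/+) by that of Myogenin, which acts in muscle precursors as they differentiate. The controls were 3 samples of sternocleidomastoid, a neck muscle, whose genotype (SmoM2/+) names no Cre. Each tumor label gives a mouse number, while nothing says whether the muscle samples came from separate animals, so p-values against muscle may leave out part of that spread. Ages are not stated.

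The respiratory chain passes electrons from NADH (complex I) and succinate (complex II) through complex III and cytochrome c to oxygen at complex IV, and the proton gradient it builds drives ATP synthase (complex V). Most subunits are encoded in the nucleus and a few by mitochondrial DNA. Several subunits of complex IV, cytochrome c oxidase, exist as a form found in most tissues and a form made in heart and skeletal muscle, and the muscle forms Cox7a1 and Cox8b are also abundant in brown fat. Skeletal muscle is rich in this machinery, and its nuclear genes are known targets of the transcription factors NRF1, the ETS factor GABPA, YY1 and ERR-alpha with the coactivator PGC-1alpha (Ppargc1a).

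Promoter sequence is shown for members on which the results below turn: the muscle isoforms Cox7a1 and Cox8b, the forms of most tissues Cox7a2 and Cox6a1, Ndufaf5, which had the largest fall, and Atp5g3, which was not called. Each is the 300 bases around the gene's annotated start in RefSeq (build GRCm38.p6), on the gene's own strand, Cox7a1 at chr7:30183921-30184220 (+ strand), Cox8b at chr7:140900397-140900696 (- strand), Cox7a2 at chr9:79759804-79760103 (- strand), Cox6a1 at chr5:115348909-115349208 (- strand), Ndufaf5 at chr2:140170396-140170695 (+ strand) and Atp5g3 at chr2:73911277-73911576 (- strand). Capitals mark letters that match, on either strand, the motif of NRF1 (GCGCANGCG), ERR (AAGGTCA), GABPA and other ETS factors (CCGGAAG), YY1 (AAGATGGCG), MEF2 (CTAAAAATA) or the E-box of myogenic factors (CAGCTG); the NRF1 motif can overlap itself on the opposite strand.
Cox7a1: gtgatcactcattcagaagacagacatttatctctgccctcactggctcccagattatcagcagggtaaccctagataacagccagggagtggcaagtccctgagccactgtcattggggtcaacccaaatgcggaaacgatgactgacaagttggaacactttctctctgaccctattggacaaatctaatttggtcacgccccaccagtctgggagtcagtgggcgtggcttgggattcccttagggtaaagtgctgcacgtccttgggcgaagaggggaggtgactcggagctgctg
Cox8b: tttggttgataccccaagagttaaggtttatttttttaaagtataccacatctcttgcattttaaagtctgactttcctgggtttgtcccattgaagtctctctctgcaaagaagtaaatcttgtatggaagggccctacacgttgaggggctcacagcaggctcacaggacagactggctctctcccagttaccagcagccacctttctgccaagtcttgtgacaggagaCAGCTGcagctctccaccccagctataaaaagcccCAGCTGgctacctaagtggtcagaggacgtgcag
Cox7a2: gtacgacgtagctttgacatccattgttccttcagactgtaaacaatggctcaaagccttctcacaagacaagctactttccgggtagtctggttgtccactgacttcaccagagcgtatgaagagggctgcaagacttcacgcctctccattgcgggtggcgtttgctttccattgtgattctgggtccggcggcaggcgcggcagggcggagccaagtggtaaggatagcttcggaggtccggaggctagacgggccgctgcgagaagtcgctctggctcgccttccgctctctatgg
Cox6a1: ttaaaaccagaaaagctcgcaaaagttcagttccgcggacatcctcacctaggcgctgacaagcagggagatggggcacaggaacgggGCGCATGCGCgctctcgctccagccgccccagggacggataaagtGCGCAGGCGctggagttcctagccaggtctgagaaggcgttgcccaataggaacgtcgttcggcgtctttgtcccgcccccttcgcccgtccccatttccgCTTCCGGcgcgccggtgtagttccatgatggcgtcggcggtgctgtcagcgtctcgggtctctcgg
Ndufaf5: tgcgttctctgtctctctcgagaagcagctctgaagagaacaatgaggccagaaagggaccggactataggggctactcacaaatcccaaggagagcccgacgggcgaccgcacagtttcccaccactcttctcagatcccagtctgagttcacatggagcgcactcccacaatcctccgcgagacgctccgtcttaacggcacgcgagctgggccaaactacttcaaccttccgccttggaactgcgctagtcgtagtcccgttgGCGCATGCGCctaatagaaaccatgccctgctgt
Atp5g3: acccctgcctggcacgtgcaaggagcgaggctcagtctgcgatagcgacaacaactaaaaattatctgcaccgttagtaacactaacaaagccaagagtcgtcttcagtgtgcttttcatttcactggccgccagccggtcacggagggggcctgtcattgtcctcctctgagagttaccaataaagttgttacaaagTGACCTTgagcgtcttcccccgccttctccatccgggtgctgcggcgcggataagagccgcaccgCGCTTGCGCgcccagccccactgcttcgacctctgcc

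The windows of the 2 muscle isoforms hold none of the NRF1, ETS, ERR or YY1 letters, and Cox8b holds the E-box at -19 and at 16 from the gene's start. Cox6a1 holds the NRF1 motif at -162 and -117 and the ETS motif on the opposite strand at -16, while Cox7a2 holds none of the 6. Ndufaf5 holds the NRF1 motif at 16, and Atp5g3 holds it on the opposite strand at 13 with the ERR motif at -52. A window was found for 69 of the 81 members. Of these, 27.5% held the NRF1 motif (all 17492 protein-coding genes with a window: 8.83%), 24.6% the ETS motif (11.9%), 10.1% the ERR motif (4.08%) and 10.1% the YY1 motif (1.94%). The E-box was held by 7.25% of members and 15.1% of all genes. The MEF2 motif was held by 0 of the 69 members and 0.394% of all genes. These matches describe letters in a window and are not measured binding.

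The share of the 45281 probes that passed detection was 32.0% to 34.3% on muscle arrays, 34.4% to 37.0% on Myogenin-Cre tumor arrays and 35.7% to 39.8% on aP2-Cre tumor arrays. The muscle arrays held the markers of mature muscle fiber, with 11 of 11 measured genes detected on all 3, and also those of brown fat: Ucp1, the uncoupling protein that defines brown adipocytes, had a mean level of 11.45 in muscle and was detected on 3 of 3 muscle arrays, 2 of 15 aP2-Cre tumors and 1 of 3 Myogenin-Cre tumors. The summed linear intensity of 7 brown adipocyte markers was 13320 to 17450 in muscle, 1053 to 4215 in aP2-Cre tumors and 4726 to 6699 in Myogenin-Cre tumors. That of 11 mature fiber markers was 235700 to 238700, 103200 to 156300 and 138200 to 149300. Of the brown adipocyte markers 5 of 7 were lower and 1 higher in aP2-Cre tumors than in muscle, and of the mature fiber markers 8 of 11 were lower, where 29.8% of all genes were lower and 34% higher. Of the slow fiber markers 4 of 6 were higher and 1, Myl3, lower. Sums of 6 slow fiber markers went the other way, at 10960 to 18190 in muscle, 51830 to 85050 in aP2-Cre tumors and 50600 to 70920 in Myogenin-Cre tumors. Sums of 6 macrophage markers were 871 to 1519, 4193 to 11570 and 1534 to 2598 in the same order, and those of 5 fibroblast markers 11860 to 14500, 22250 to 38280 and 20580 to 28250. Lower in tumors were the sums of 5 white adipocyte markers, at 21520 to 22860, 2788 to 10540 and 8112 to 18920, and of 2 erythroid markers, at 31660 to 39930, 1713 to 30290 and 13250 to 21950. Sums of 4 endothelial markers were 1576 to 1805, 860 to 1705 and 1311 to 1632. Linear sums follow their brightest genes and do not measure the share of a cell type. In Myogenin-Cre tumor 41 the brown adipocyte markers Cpt1b and Cidea read 11.99 and 11.08, while Ucp1 read 4.92. In Myogenin-Cre tumor 43 the white adipocyte marker Lpl read 14.16, while Adipoq read 8.82. The part of these cell types in the results below was not tested, and in whole tissue fewer cells of a type and less RNA per cell cannot be told apart.

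The first comparison set the aP2-Cre tumors against muscle. Most members were lower in the tumors: 76 of 81 fell, 1, Cox6b2, rose (adjusted p under 0.05 in the fit of all genes) and 4 were not called. Over all genes tested 29.8% fell and 34% rose. For 73 members every tumor lay below every muscle sample, against 22.9% of all genes with that pattern. The fall was at least 2-fold for 45 members. The members' median log2 change was -1.05, and that of all genes 0.09. Among 2697 other genes in the top 25% by mean level over all arrays, 29.7% fell and 45% rose. Most of these arrays are aP2-Cre tumors, so this set is not a control for genes that are bright in muscle. Array sets were inferred from a shared highest value in the authors' normalized values, and no label names them. Within the set of the 3 muscle samples and aP2-Cre tumors 128, 135 and 140, 71 members fell, with a median of -0.95. Centring each array on its median in place of quantile normalization turned the calls over all genes from 3285 lower and 3757 higher to 1722 and 5063, while 72 members fell.

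Complex I, which takes electrons from NADH, fell as a block, with 34 of 34 members lower and a median log2 change of -1.21 (range -2.27 to -0.26). The largest falls were in accessory subunits of its membrane arm. Ndufb9 read 11.03, 10.90 and 11.08 in muscle, and its lowest, median and highest tumor levels were 7.87, 8.79 and 9.81, all below muscle. Its log2 change was -2.27 (SE 0.26, adjusted p = 2.08e-07). Ndufb5 changed by -2.23 and Ndufb2 by -2.15, so that all 3 fell more than 4-fold. Core subunits of the arm that takes up NADH were lower as well: Ndufv1, which binds NADH and flavin, changed by -0.97, Ndufv2 by -1.10, Ndufs3 by -1.37, Ndufs7, which holds the last iron-sulfur cluster before ubiquinone, by -1.27 and Ndufs8 by -1.21. Ndufa13, known also as GRIM-19, had the smallest fall at -0.26. Ndufs5-ps changed by -1.33, and whether its probe also binds the RNA of the gene Ndufs5 was not tested.

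The assembly factors of complex I were also all lower, 7 of 7, with a median of -0.80. Ndufaf5, known in human cells to hydroxylate the subunit Ndufs7, had the largest fall of all members. It read 11.25, 11.09 and 11.19 in muscle, and 7.45, 8.12 and 8.97 as the lowest, median and highest of the aP2-Cre tumors, with no overlap. The fall was 8.34-fold (log2 change -3.06, SE 0.20, adjusted p = 5.05e-11). A second probe of Ndufaf5 gave -2.99. Ndufaf1 changed by -1.50 and Ndufaf7 by -1.12. Ndufaf2, Ndufaf3, Ndufaf4 and Ndufaf8 changed by -0.75, -0.54, -0.65 and -0.80.

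Complex II, the succinate dehydrogenase that links the citric acid cycle to the chain, had 3 measured genes and all fell. Its iron-sulfur subunit Sdhb read 12.54, 12.79 and 12.70 in muscle and 9.76, 10.44 and 11.27 as the lowest, median and highest tumor level. All tumors were below muscle, by a mean log2 change of -2.27 (SE 0.25, adjusted p = 1.06e-07). The membrane anchors Sdhd and Sdhc changed by -1.54 and -1.16. Of complex III, which passes electrons to cytochrome c, 5 of 6 members fell with a median of -0.66. The core proteins Uqcrc1 (-1.37) and Uqcrc2 (-1.15) led, Uqcr11 changed by -0.68, and the small subunit Uqcrq was not called (-0.26, adjusted p = 0.0797).

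Complex IV, which reduces oxygen, had 13 of 15 members lower, 1 higher and 1 not called, with a median of -0.87. Cox7a1, the heart and muscle form of subunit 7a, fell most. It read 14.36, 14.33 and 14.26 in muscle and ranged in the aP2-Cre tumors from 8.22 through a median of 11.82 to 13.40. The mean log2 change was -2.67 (SE 0.70, adjusted p = 0.00207). Every tumor was below muscle, but the tumors were spread wider for Cox7a1 than for any other member. Cox7b changed by -2.31, Cox6c by -1.44 and Cox5a by -1.23, and Cox7a2l by -0.52. Ndufa4 changed by -0.89.

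Complex V, the ATP synthase, had 14 of 16 members lower, with a median of -0.91. In its catalytic head, the alpha subunit Atp5a1 read 11.12, 11.01 and 11.30 in muscle against 8.60, 9.34 and 10.24 as the lowest, median and highest tumor level, a log2 change of -1.86 (SE 0.25, adjusted p = 1.41e-06). Its partner Atp5b, the beta subunit that carries the catalytic sites, read 15.13, 15.13 and 15.15 in muscle and 14.81, 14.99 and 15.20 in tumors, which overlap. Atp5b changed by -0.14 (SE 0.07, adjusted p = 0.0803) and was not called; the difference between the 2 subunits was not tested. In brightness Atp5b ranked 2 of 11034 genes in muscle. Atp5g3, a gene for the c subunit of the ring, was not called either (-0.15, adjusted p = 0.172), with rank 27, while the dimmer c-subunit gene Atp5g2 changed by -1.05. The small subunit Atp5md (-1.72), the epsilon subunit Atp5e (-1.68) and the stalk subunit Atp5pb (-1.60) fell more than 2-fold, and Atp5o, the stalk subunit that joins the head, changed by -0.61.

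**Figure D1:**
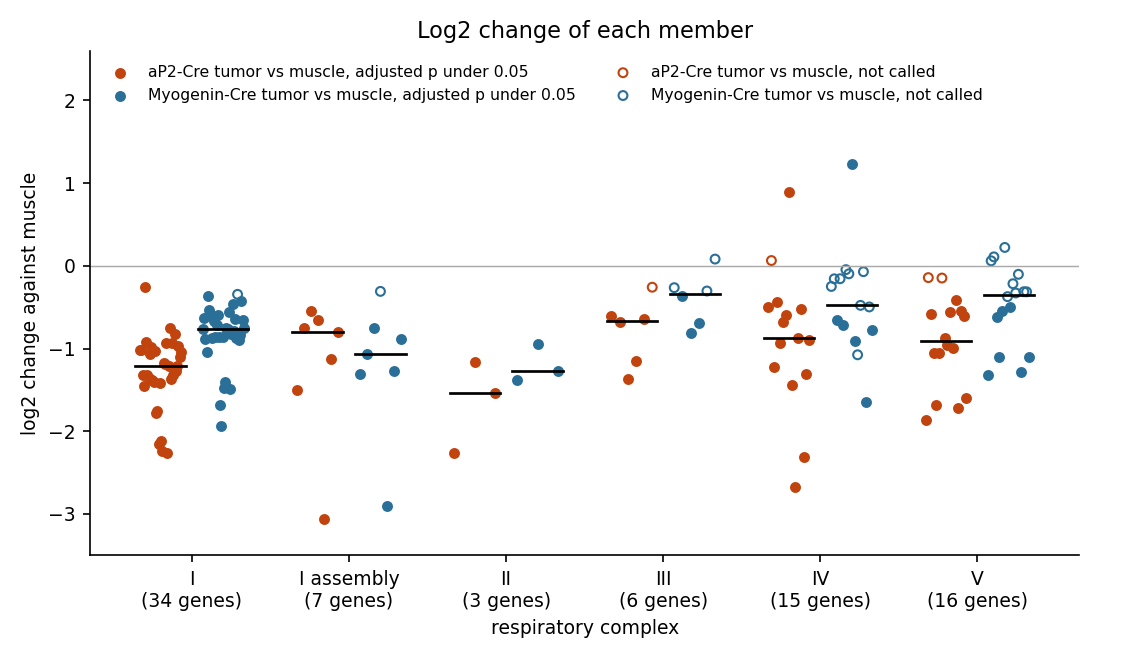
Log2 change against muscle (y axis) of each of 81 members by complex (x axis), for aP2-Cre tumors (red, n = 15) and Myogenin-Cre tumors (blue, n = 3); filled points have an adjusted p under 0.05 and bars are medians. Complex I and II lie wholly below 0 in both, while in complexes III, IV and V many Myogenin-Cre points are open, and Cox6b2 is the filled point above 0.

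Over all members, brightness moved with the size of the change. The 42 members with a muscle level of 13 or more had a median log2 change of -0.98 in aP2-Cre tumors, and the 39 below that level -1.32. Complexes I, II and V had this order within them in both comparisons with muscle, and complexes III and IV the reverse. In aP2-Cre tumors complex IV had -0.89 for 9 members at 13 or more and -0.69 for 6 below. Complex III had -0.68 for 5 and -0.26 for 1. Within genes, of 23 members with several probes detected on all arrays, the dimmest probe gave the lower value in 16, with a median of -1.26 against -0.95 for the brightest. In muscle 29 of the 81 members ranked among the 100 brightest genes. The median muscle level was 13.20 in complex I, 13.98 in III, 13.96 in IV and 12.78 in V. Differences between complexes in the size of their fall are therefore given as values only, with no ranking.

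**Figure D2:**
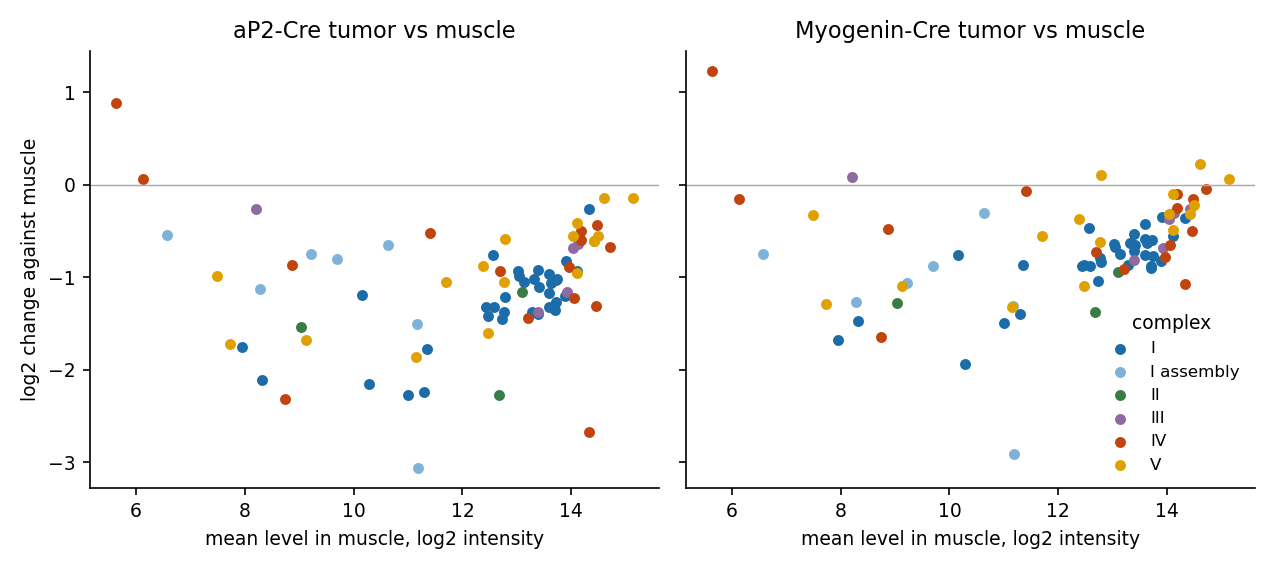
Mean normalized log2 intensity in muscle (x axis) against log2 change (y axis) for each member, coloured by complex, in the 2 comparisons with muscle. Members at levels of 14 or more lie mostly between -1 and 0, with Cox7a1 as the low point near -2.67 on the left.

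The 3 Myogenin-Cre tumors were then compared with muscle; both comparisons use the same 3 muscle samples and are not independent. Of 81 members 57 fell and 1 rose, Cox6b2 again, where 23.9% of all genes fell and 25.2% rose. All 57 had every tumor below every muscle sample, a pattern met by 23.4% of all genes, and 17 fell at least 2-fold. The median was -0.69 for members and 0.06 for all genes. Complex I stayed low as a whole, with 33 of 34 members called and a median of -0.76, and Ndufs6, a zinc-binding subunit, was the exception (-0.34, adjusted p = 0.0673 by its brighter probe). Its dimmer probe gave -1.46, so the 2 probes disagree. The largest falls here were Ndufb2 (-1.93), Ndufb11 (-1.68) and Ndufb9 (-1.49). No array set held both these tumors and muscle; with the array set as a covariate, 37 members fell. Median centring turned the calls over all genes from 2635 lower and 2778 higher to 1398 and 2942, while 53 members fell.

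Assembly factors and complex II were low in the Myogenin-Cre tumors too. Ndufaf5 read 8.49, 8.21 and 8.12, all below its muscle levels, a fall larger than that of any other member (log2 change -2.91, SE 0.26, adjusted p = 2.05e-08). Ndufaf1, Ndufaf7, Ndufaf2, Ndufaf8 and Ndufaf3 changed by -1.31, -1.27, -1.06, -0.88 and -0.75, and Ndufaf4 was not called (-0.31, adjusted p = 0.0702). Sdhb read 11.62, 10.84 and 11.44, a log2 change of -1.38 (SE 0.33, adjusted p = 0.00142), and Sdhd and Sdhc changed by -1.27 and -0.95.

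Fewer members of complexes III, IV and V passed. The shares that fell were 50%, 33.3% and 43.8%, where 23.9% of all genes fell, so that of complex IV lay nearest to all genes. In complex III 3 of 6 fell, Uqcrc1 (-0.81), Uqcrc2 (-0.69) and Uqcr11 (-0.37), with a median of -0.34. In complex IV 5 of 15 fell, Cox7b (-1.65), Cox6c (-0.91), Ndufa4 (-0.78), Cox6a1 (-0.72) and Cox5a (-0.65), with a median of -0.48. In complex V 7 of 16 fell, with a median of -0.35, led by Atp5a1 (-1.32), Atp5md (-1.28), Atp5pb (-1.10) and Atp5e (-1.10). Atp5b read 15.18, 15.20 and 15.20 and Atp5g3 14.90, 14.71 and 14.89, all above muscle and neither called, while with median centring both signs turned (Atp5b -0.46, called at adjusted p = 0.0162, and Atp5g3 -0.28). Cox7a1 read 13.70, 12.64 and 13.40, all below muscle, but its change of -1.08 was not called (SE 0.90, adjusted p = 0.336), in a fit whose spread is pooled over groups and includes that of the aP2-Cre tumors.

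The third comparison set the aP2-Cre against the Myogenin-Cre tumors. Of 81 members 37 were lower in aP2-Cre tumors and 0 higher, where 7.68% of all genes were lower and 8.08% higher. Differences were small, with a median of -0.41 (all genes 0.01), 75 of 81 below 0 and none of 2-fold or more among those called. Only Ndufaf4 and Cox6b1 separated every aP2-Cre from every Myogenin-Cre tumor, 2 of 81, where 2.21% of all genes were called lower with that pattern. Cox6b1, the common form of a subunit of complex IV, read 14.21, 13.91 and 14.12 in Myogenin-Cre tumors and 13.23 to 13.88 in aP2-Cre tumors, a log2 difference of -0.50 (SE 0.11, adjusted p = 0.00347). The count rested on few tumors: it was 3 without tumor 41, 2 without tumor 43 and 48 without tumor 42. It was 1 with the array set as a covariate, 0 within the set that holds the Myogenin-Cre tumors and aP2-Cre tumors 89, 90 and 95, 0 with median centring, which turned the calls over all genes from 847 lower and 891 higher to 226 and 1035, and 2 with the authors' normalized values. The members' median stayed between -0.50 and -0.31 over 13 alternatives, so its sign held while the calls did not.

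In the order of group means, the aP2-Cre tumors were lowest and muscle highest for 70 of 81 members, including 33 of 34 in complex I. Of the assembly factors of complex I 3 of 7 had that order. For the other 4, Ndufaf2, Ndufaf3, Ndufaf7 and Ndufaf8, the Myogenin-Cre mean was the lower of the 2 tumor means, though none of these differences was called (adjusted p = 0.245 to 0.593) and for Ndufaf8 the sign turned with the authors' values (-0.0061). Averaged over the members per array, the aP2-Cre tumors lay 0.72 to 1.44 log2 units below muscle. Myogenin-Cre tumors 41, 42 and 43 had means of -0.56, -0.92 and -0.63, and the muscle samples lay within 0.02 of their mean. Tumor 42 thus lay among the aP2-Cre tumors, and tumors 41 and 43 above all of them. Averaged over the 7 assembly factors, the 2 kinds of tumor overlapped fully (Myogenin-Cre -1.30 to -1.14, aP2-Cre -1.48 to -0.998). Whether assembly factors differ from subunits in this respect was not tested.

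**Figure D3:**
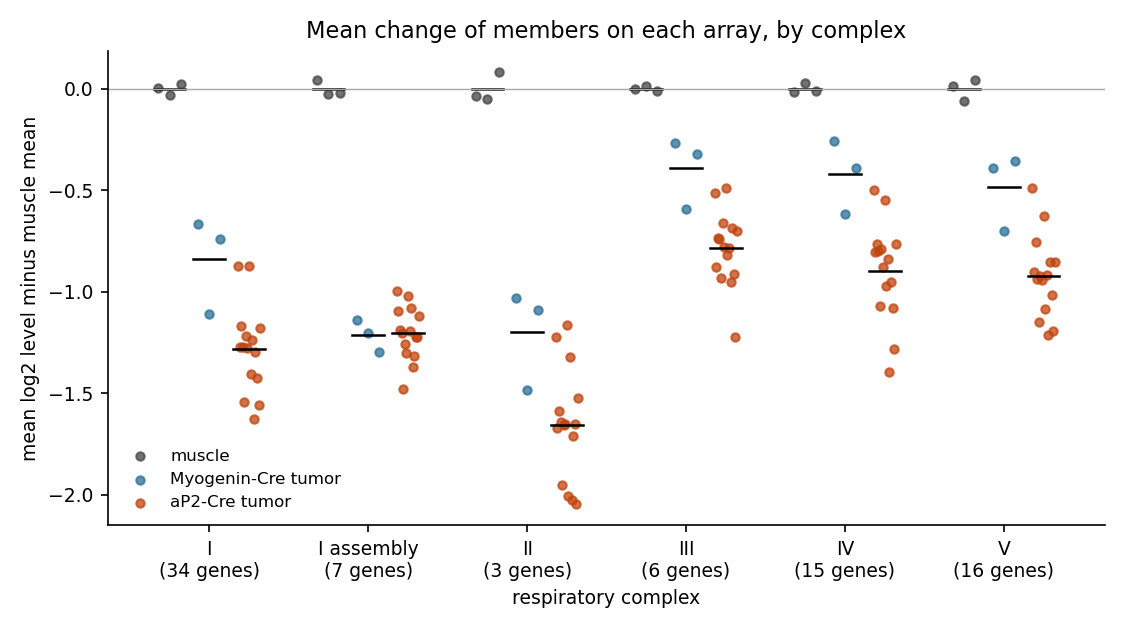
Mean log2 level of the members of each complex on each array, minus the muscle mean (y axis), by complex (x axis); points are arrays of muscle (grey), Myogenin-Cre tumors (blue) and aP2-Cre tumors (red), and bars are group means. The Myogenin-Cre points lie above most aP2-Cre points for complexes I to V and among them for the assembly factors of complex I.

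Among the 15 aP2-Cre tumors a few were lowest or highest for many members. Tumor 174 had the lowest level of 29 members, tumor 115 of 22 and tumor 65 of 14, and tumor 90 had the highest level of 39 and tumor 128 of 25. The median SD over tumors was 0.25. Cox7a1 had the largest, 1.34, followed by Cox7b at 0.58.

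The isoforms of cytochrome c oxidase subunits were compared pair by pair, by the difference between the log2 levels of both isoforms on each array, which asks whether they changed unequally. Of the pairs listed, 4 had both isoforms measured and gave 12 tests; Cox8a, Atp5g1 and Ndufa4l2, partners in the other pairs, were not analysed here. Cox7a1 fell more than Cox7a2, its counterpart of most tissues. Cox7a2 read 8.98, 8.64 and 8.996 in muscle and 7.54, 7.93 and 8.60 as the lowest, median and highest tumor level, a log2 change of -0.87. The difference between the isoforms changed by -1.80 log2 units from muscle to aP2-Cre tumors, with no overlap (exact permutation test, two-sided p = 0.00245, the smallest that 15 against 3 arrays allow, adjusted over 12 tests 0.0147). Without 1 muscle array it was -1.89 to -1.68 and no longer passed (adjusted exact p = 0.0882, the smallest that 15 against 2 arrays allow). In Myogenin-Cre tumors the change was -0.60, with no overlap, but 3 against 3 arrays cannot go below an exact p of 0.1.

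The muscle form of subunit 6a, Cox6a2, was called lower in aP2-Cre tumors and not in Myogenin-Cre tumors. It read 14.66, 14.75 and 14.73 in muscle, 14.85, 14.35 and 14.81 in Myogenin-Cre tumors, and 12.97, 14.10 and 14.54 as the lowest, median and highest of the aP2-Cre tumors. It changed by -0.68 in aP2-Cre tumors (SE 0.21, adjusted p = 0.00888) and by -0.05 in Myogenin-Cre tumors (adjusted p = 0.904). Its counterpart Cox6a1 read 12.68, 13.08 and 12.34 in muscle and changed by -0.93 and -0.72. The pair difference did not pass in aP2-Cre tumors (0.25, exact permutation p = 0.373, adjusted 0.447). Cox6a2 ranked 21 in brightness in muscle. Cox8b, the muscle form of subunit 8, read 14.45, 14.46 and 14.46 in muscle, 14.12, 13.55 and 14.22 in Myogenin-Cre tumors and 12.07, 13.18 and 13.91 as the lowest, median and highest of the aP2-Cre tumors. Every tumor of both kinds lay below muscle, with log2 changes of -1.31 (adjusted p = 0.000274) and -0.50 (adjusted p = 0.256).

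Cox6b2, known as the testis form of subunit 6b, was the only member that rose in either comparison with muscle. It was dim, at 5.74, 5.67 and 5.50 in muscle, 6.67, 7.02 and 6.93 in Myogenin-Cre tumors and 5.82, 6.58 and 6.98 as the lowest, median and highest of the aP2-Cre tumors, all above muscle. The log2 changes were 0.89 (SE 0.21, adjusted p = 0.000759) and 1.23 (SE 0.27, adjusted p = 0.00065). Its common counterpart Cox6b1 changed by -0.60 (adjusted p = 4.33e-05) in aP2-Cre tumors and by -0.10 in Myogenin-Cre tumors. The difference between the isoforms rose by 1.49 in aP2-Cre tumors with no overlap (exact permutation p = 0.00245, adjusted 0.0147), and without 1 muscle array it no longer passed (adjusted exact p = 0.0882). Cox6b2 was detected on 2 of 3 muscle arrays, so its muscle level lies near background. The rise of Cox6b2 was not called with the array set as a covariate or within the muscle samples' set, where 0 members rose. For subunit 4, Cox4i1 changed by -0.50 (adjusted p = 7.34e-05) in aP2-Cre tumors, and Cox4i2, known from lung, was not called (0.06, adjusted p = 0.833). Their pair difference changed by 0.57 and did not pass (exact permutation p = 0.0662, adjusted 0.199), but it passed with median centring (1.42) and with the authors' values (0.89).

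**Figure D4:**
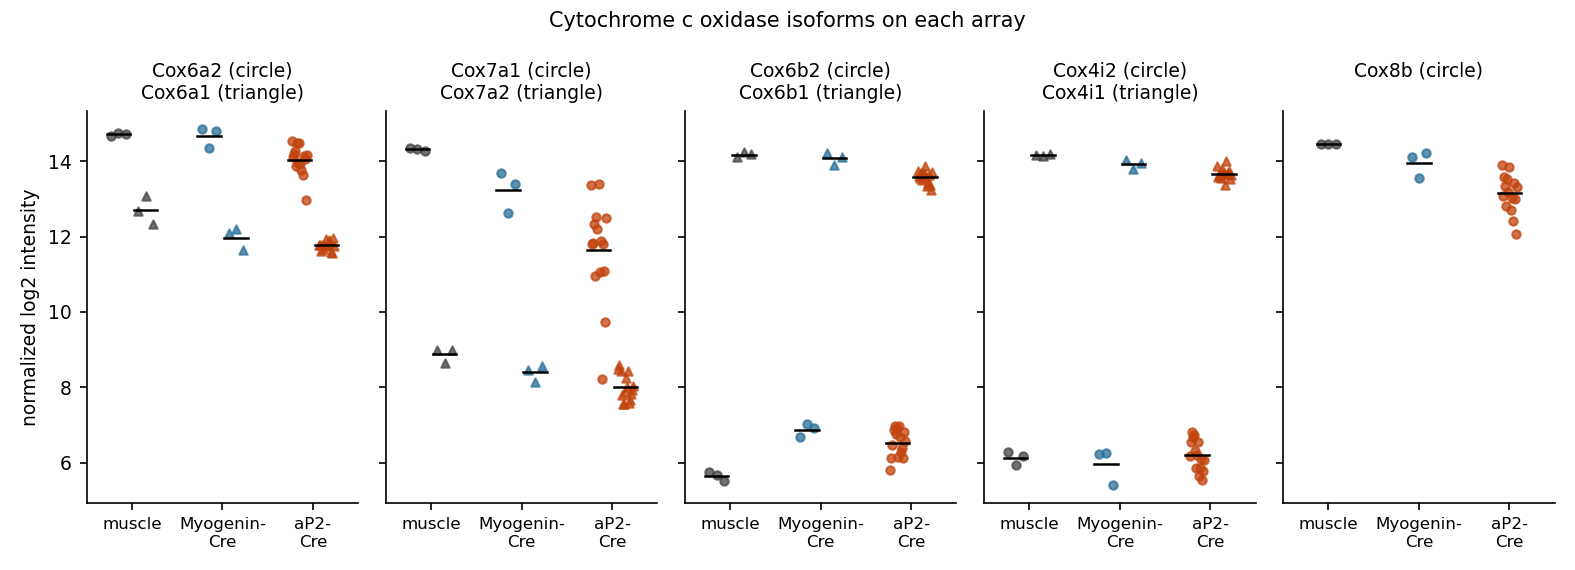
Normalized log2 intensity (y axis) of cytochrome c oxidase isoforms on each array of muscle (grey), Myogenin-Cre tumors (blue) and aP2-Cre tumors (red); circles and triangles are the isoforms named above each panel and bars are group means. Cox7a1 spreads from 8.22 to 13.40 in aP2-Cre tumors while Cox7a2 spreads from 7.54 to 8.60, and levels of different probes are not comparable with each other.

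The levels of 5 isoforms among the aP2-Cre tumors were set against Ckm, the muscle creatine kinase, a marker of mature fibers that ranged from 8.02 in tumor 115 to 13.94 in tumor 90. Ckm is 1 of the 11 measured fiber markers. Acta1, Mb and Tnnc2 read 15.08, 14.49 and 14.82 in tumor 115 and 15.04, 14.51 and 15.10 in tumor 90. The others were, like Ckm, lower in tumor 115 than in tumor 90. Whether Ckm stands for the amount of mature fiber was not tested. Over 15 tumors Cox7a1 correlated with Ckm at Pearson r = 0.96 and Spearman rho = 0.96 (adjusted permutation p = 5e-05 for each, the smallest they can give over 5 relations). Without tumors 115 and 90, the farthest from the median, r was 0.90, and with each array set centred 0.96. Cox8b gave r = 0.82 and rho = 0.83 (adjusted permutation p = 0.00075 and 0.00065), 0.80 without those tumors and 0.82 with sets centred. Cox6a2 gave r = 0.71 and rho = 0.77 (adjusted permutation p = 0.0118 and 0.00193), 0.75 without those tumors and 0.65 with sets centred. The forms of most tissues did not pass: Cox7a2 gave r = 0.38 (rho = 0.25, adjusted permutation p = 0.199 and 0.452) and Cox6a1 r = -0.02 (rho = 0.09, adjusted permutation p = 0.943 and 0.752). With sets centred Cox7a2 rose to r = 0.52 (permutation p = 0.0501 before adjustment) and Cox6a1 gave -0.06. Without tumors 115 and 90 they gave 0.17 and 0.13. Whether a correlation of a muscle form exceeds that of its counterpart was not tested, and the other members were not set against Ckm. Tumor 90 had the highest level of 39 of the 81 members and tumor 115 the lowest of 22, so the extremes of Ckm were shared by members other than the muscle forms. In tumor 115, Cox7a1 read 8.22, Cox8b 12.42 and Cox6a2 13.63, and in tumor 90 they read 13.40, 13.85 and 14.48, so the steps between these tumors were unequal. Tumor 115 and tumor 90 differed by less in Cox6a1, at 11.83 and 11.78.

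**Figure D5:**
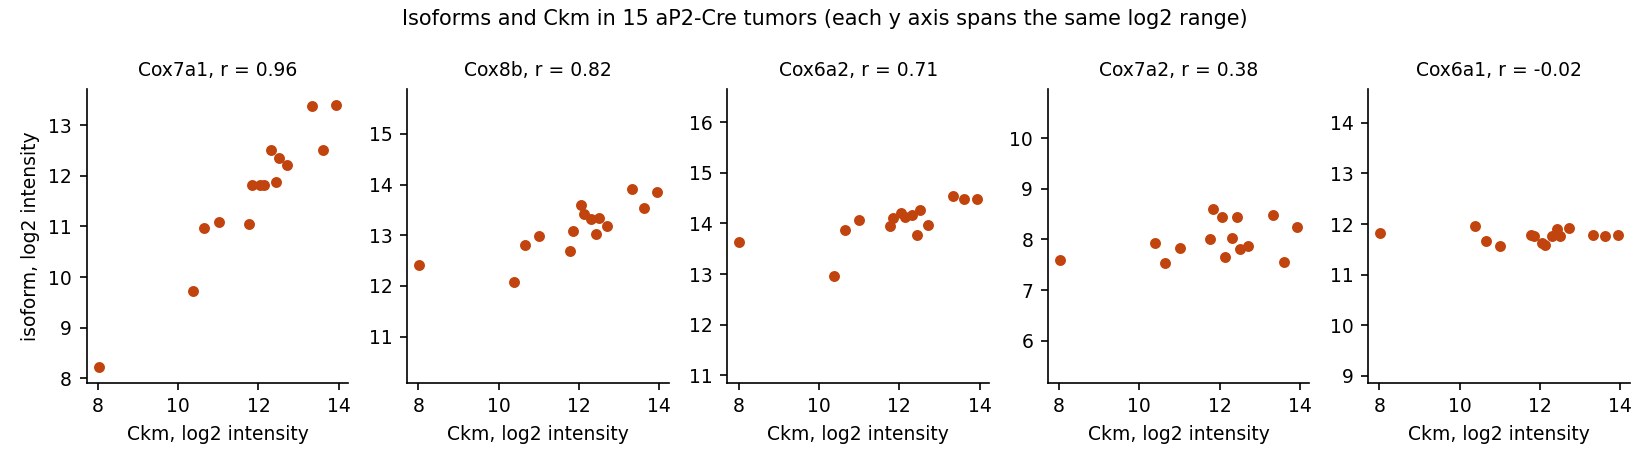
Log2 intensity of 5 isoforms (y axes, all of the same span) against that of Ckm (x axis) in the 15 aP2-Cre tumors, each point a tumor. Cox7a1 rises with Ckm over the whole range (r = 0.96), Cox8b and Cox6a2 less steeply (0.82 and 0.71), and Cox6a1 is level (-0.02).

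The genes around the chain gave a wider view. Of 13 subunits encoded by mitochondrial DNA 8 had a probe. In each comparison with muscle 4 fell and 0 rose, with medians of -0.69 in aP2-Cre and -0.67 in Myogenin-Cre tumors. Over all genes 29.8% fell and 34% rose in aP2-Cre tumors, and 23.9% and 25.2% in Myogenin-Cre tumors. Between the tumors 0 of the 8 differed by adjusted p, where 7.68% of all genes were lower and 8.08% higher. COX2, a catalytic subunit of complex IV, had a mean of 13.45 in muscle, 12.26 in aP2-Cre tumors and 12.43 in Myogenin-Cre tumors (log2 changes -1.19 and -1.02, adjusted p = 1.05e-06 and 0.000275). ATP6, of the proton channel of ATP synthase, changed by -1.01 and -0.97, ND1 by -0.66 and -0.63, and the dim probe of ND4L by -2.24 and -2.13. The other 4 were not called: CYTB (0.05 and 0.06 in the same order) and ND4 (-0.15 and -0.17) are among the brightest genes on the array, and ND5 (-0.0011 and -0.70) and ND6 (-0.71 and -0.45) are dim. ND5 read 8.87 to 9.48 in aP2-Cre tumors 104, 115, 144, 164, 165 and 174, and 6.86 to 7.46 in the others. Its muscle levels were 7.57 to 8.63. The former tumors were in array sets apart from the others, so the mean change of ND5 in aP2-Cre tumors averages unlike sets.

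Electron carriers that feed or link the complexes fell in aP2-Cre tumors without exception among 5 measured, with a median of -1.84, where 29.8% of all genes fell. Cycs, cytochrome c, changed by -1.84 in aP2-Cre and -1.32 in Myogenin-Cre tumors, and Cyc1, the cytochrome of complex III, by -1.54 and -0.81. The subunits of the electron transfer flavoprotein, Etfa and Etfb, which bring electrons from fatty acid oxidation, changed by -1.46 and -2.05 in aP2-Cre tumors and by -0.65 and -0.80 in Myogenin-Cre tumors. All 5 were called lower in aP2-Cre than in Myogenin-Cre tumors, where 7.68% of all genes were, with Etfb at -1.25 (adjusted p = 0.000258). Lower calls over all genes in that comparison ran from 170 to 1005 when 1 array was left out, and the 5 carriers were not refitted under the alternatives. Cs, the citrate synthase often used as a measure of mitochondrial content, changed by -1.89 and -0.99.

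Of 29 measured assembly factors of complexes II to V, 27 fell and 0 rose in aP2-Cre tumors (median -1.05, with 29.8% of all genes lower), and 24 fell and 0 rose in Myogenin-Cre tumors (median -0.88, with 23.9% of all genes lower). The 2 not called in aP2-Cre tumors were Sco1 (-0.26) and Cox19 (-0.20). Sdhaf3, of complex II, changed by -1.58 and -1.54, Coa5, of complex IV, by -1.53 and -1.53, and Atpaf2, of ATP synthase, by -1.24 and -1.11. Atpif1, kept in the same list but no assembly factor, is the inhibitor protein that blocks ATP hydrolysis by ATP synthase, and it rose. Its mean was 11.13 in muscle, 12.74 in aP2-Cre tumors and 12.50 in Myogenin-Cre tumors, log2 changes of 1.61 (adjusted p = 3.83e-09) and 1.37 (adjusted p = 3.43e-06). A list of 9 carriers, outer membrane channels, mitochondrial creatine kinases and uncoupling proteins had 7 lower and 1 higher in aP2-Cre tumors, or 6 lower and 1 higher of 8 without Ucp1. Slc25a5, the ADP/ATP carrier of dividing cells, rose by 1.10 (adjusted p = 1.69e-08) and in Myogenin-Cre tumors by 1.303 (adjusted p = 2.05e-07). Vdac3, a channel of the outer membrane, and Slc25a3, the phosphate carrier, changed by -1.65 and -0.90 in aP2-Cre tumors. Of 5 measured complex I assembly factors with other names 4 fell in each kind of tumor, among them Ecsit (-1.87 and -1.58) and Foxred1 (-1.15 and -0.48). The other, Timmdc1, was not called in either kind. It read 7.52, 7.08 and 7.52 in muscle and 9.07, 9.08 and 8.96 in Myogenin-Cre tumors. In aP2-Cre tumors Timmdc1 ranged from 6.18 to 9.17. Of 20 import and chaperone genes 16 fell and 1, Tomm34, rose (0.62) in aP2-Cre tumors (median -0.65).

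Of 22 regulators of respiratory genes 13 fell and 4 rose in aP2-Cre tumors (median -0.79), where 29.8% of all genes fell and 34% rose. In Myogenin-Cre tumors 10 fell and 3 rose (median -0.64), where 23.9% and 25.2% of all genes did. Ppargc1a, the coactivator PGC-1alpha, had a mean of 8.75 in muscle and 6.62 in aP2-Cre tumors, a log2 change of -2.14 (adjusted p = 0.000945), and was not called in Myogenin-Cre tumors (-0.77, adjusted p = 0.348). The mitochondrial transcription factor Tfb2m changed by -0.97 and -1.04, and Pparg, the adipocyte nuclear receptor, by -3.06 and -1.83. Ppara was detected on 3 of 3 muscle arrays and on 0 tumor arrays. It met the detection filter only through muscle, so its p-value is left out. In the opposite direction, the transcription factor Nrf1 rose by 0.81 (adjusted p = 4.57e-05) and 0.90 (adjusted p = 0.000431), and Pprc1, a relative of PGC-1alpha, by 0.70 and 0.59. Gabpb1, a subunit of the ETS factor GABP, was detected on 0 muscle arrays, 15 of 15 aP2-Cre tumors and 3 of 3 Myogenin-Cre tumors. Gabpb1 met the filter only through the tumors, so its p-value is left out as well. Its partner Gabpa was not called (-0.11, adjusted p = 0.51, and -0.31, adjusted p = 0.189), and Esrra, which encodes ERR-alpha, fell by 1.28 (adjusted p = 3.85e-07) and by 1.02 (adjusted p = 0.000281) on the log2 scale.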

How the data were processed

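Per the labels' protocols, RNA came from Trizol and RNeasy columns and was hybridised as biotin-labelled copies. The table deposited by the authors without normalization holds a linear intensity and a detection p-value per probe and array. Its values show no sign of background subtraction. The intensity values the authors normalized served as an alternative. They were taken to come in 5 sets of arrays, because the arrays of a set share their highest value. The submitters' processing notes name BeadStudio and nothing used here records further steps.

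Intensities were background-corrected and quantile normalized with neqc (limma 3.58.1, R 4.3.3, offset 16, control parameters inferred from detection p). Probes with 1 symbol in the platform table (34885 of 45281; 18 had several and 10378 none) and detection p under 0.01 on at least 3 arrays were kept, and the brightest probe on average stood for its gene, which gave 11034 genes. Groups came from the genotype and tissue labels. limma (lmFit, eBayes with trend, 1 model of 3 groups, two-sided) gave p-values adjusted by Benjamini-Hochberg over all genes, with a threshold of 0.05; the fit was tested on simulated data. Isoform pairs were tested with exact permutation and correlations with 100000 permutations (Python 3.11.15, scipy 1.17.1).

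Named were the isoforms of each pair, per complex and comparison the 3 largest falls and 2 largest rises among called members whose arrays did not overlap, members that moved against their complex or were not called in aP2-Cre tumors, names that are no subunit, and up to 3 called genes of each related list in each direction, with other members added for their role. Members, lists and tests were chosen with earlier results of these data known. Alternatives covered background correction, normalization, the authors' values, probe filters, mean of probes, array weights, array sets and left-out arrays. Levels are normalized log2 intensities; bead arrays give no counts, so the number of arrays limits the precision.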

Additional observations from a re-analysis of the deposited data

How the results depend on the processing

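No paired analysis was possible because the groups share no numbers that pair samples. The lower count against muscle in aP2-Cre tumors was 68 to 78 over all alternatives run. In Myogenin-Cre tumors it fell from 57 to 37 with the array set as a covariate and ran from 45 to 58 when 1 array was left out. Between the tumors the count of 37 became 0 with median centring, 2 with the authors' values, 20 with no detection filter, 62 with array weights, 1 with the array set as a covariate, 0 within the set of the Myogenin-Cre tumors, and 2 to 48 when 1 array was left out. The higher count of 1 in aP2-Cre tumors became 0 with probes detected on all arrays, which leaves Cox6b2 out, with the array set as a covariate and within the muscle set; in Myogenin-Cre tumors it became 0 with probes detected on all arrays and with the set as a covariate, and 2 with array weights. Median centring moved the median of all genes to 0.44 in aP2-Cre tumors, 0.25 in Myogenin-Cre tumors and 0.17 between the tumors. Members' medians stayed between -1.23 and -0.95, -0.82 and -0.56, and -0.50 and -0.31.

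Without 1 muscle array the isoform difference of Cox7a1 and Cox7a2 ran from -1.89 to -1.68 and that of Cox6b2 and Cox6b1 from 1.41 to 1.58, both with adjusted exact p = 0.0882, the smallest that 15 against 2 arrays allow. That of Cox4i2 and Cox4i1 in aP2-Cre tumors passed with median centring (1.42), the authors' values (0.89) and the other background correction (0.55); in Myogenin-Cre tumors it ran from -0.12 to 0.38 without 1 array. That of Cox6a2 and Cox6a1 became -0.17 with median centring, and that of Cox6b2 and Cox6b1 between the tumors ran from -0.0076 to 0.31 without 1 array. The correlation of Cox6a1 with Ckm became 0.13 without 2 tumors.

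Over all 81 members the sign turned under at least 1 alternative for 2 in aP2-Cre tumors, 7 in Myogenin-Cre tumors and 4 between the tumors; 0 of these were called in the reported fit, and Atp5c1, Atp5k and Atp5l in Myogenin-Cre tumors are not detailed here. Median centring gave Uqcrq 0.26 in aP2-Cre tumors, gave Atp5b -0.46, Atp5g3 -0.28 and Cox4i2 0.18 in Myogenin-Cre tumors, and gave Ndufaf5 0.0393 and Ndufb11 0.13 between the tumors; of these Atp5b passed (adjusted p = 0.0162). The authors' values gave Atp5b -0.29, Atp5g3 -0.10 and Cox4i2 0.0436 in Myogenin-Cre tumors and Ndufaf8 -0.0061 between the tumors. The set as a covariate gave Atp5b -0.0417, Cox4i2 0.15 and Cox6a2 0.11 in Myogenin-Cre tumors and Ndufaf5 0.12 between the tumors, as did the set of the Myogenin-Cre tumors alone (0.12). The mean of probes gave Ndufaf5 0.0766 and Ndufb11 0.0276 between the tumors, and array weights gave Cox6a2 0.052 in Myogenin-Cre tumors. Without 1 array Cox4i2 ran from -0.0271 to 0.14 in aP2-Cre tumors, -0.30 to 0.12 in Myogenin-Cre tumors and -0.0606 to 0.37 between the tumors, Cox6a2 from -0.14 to 0.11 in Myogenin-Cre tumors, and Ndufb11 from -0.20 to 0.0343 between the tumors. The cause of these shifts was not tested. Bright members had the smaller changes over all members, though not within complexes III and IV, and whether signal near the top of the array plays a part was not tested.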
